A study of Mus musculus with 6 samples.

Results

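Ptgs2 encodes cyclooxygenase-2 (COX-2), the inducible enzyme that turns arachidonic acid into prostaglandin H2. It is followed here in mouse bone marrow-derived macrophages with and without bacterial lipopolysaccharide (LPS). The selection takes 1 of the 74007 rows of the value table, the transcript-level probe set ENSMUST00000035065_at. Whether other rows also measure transcripts of this gene was not checked, since the rows carry no gene names. The row was selected because of its rise with LPS in these same arrays. Its values, its difference and its place among the other rows are therefore given as a description, with no p-value.

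The cells came from the femoral marrow of 3 female C57BL/6J mice aged 8 to 12 weeks. They were cultured with rhM-CSF, the human growth factor that drives marrow precursors to become macrophages, at 50 ng/mL, re-plated on day 6, and either left unstimulated or given LPS at 10 ng/mL on day 7 for 4 h. Both groups shared the strain, the diet of normal chow and the growth factor, and each animal gave 1 culture to each group, so that 3 arrays were unstimulated and 3 were of LPS-treated cells. LPS, from the outer membrane of Gram-negative bacteria, is the ligand of the receptor TLR4, and the series asks how macrophages respond at the transcript level to that stimulus. The values are log2 expression from Affymetrix mouse exon arrays, 1 array per sample.

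Prostaglandins are made in steps. A phospholipase releases arachidonic acid from membrane lipids, a cyclooxygenase converts it to prostaglandin H2, and terminal synthases turn that into prostaglandin E2, prostacyclin, thromboxane or other products. Of the cyclooxygenases, that encoded by Ptgs1 is present in many resting cells, whereas Ptgs2 is low in most resting cells and is known to be induced in macrophages by TLR4 ligands, through transcription factors that include NF-kB, C/EBP and CREB family members. COX-2 is the target of coxibs and, with the enzyme from Ptgs1, of aspirin-like drugs.

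In the RefSeq annotation of the mouse build GRCm38.p6, Ptgs2 (gene ID 19225) is a protein-coding gene on chromosome 1, from 150100031 to 150108234 on the forward strand, a span of 8204 bases. The sequence before its annotated start, chr1:150099781-150100030, and a short stretch after it, chr1:150100037-150100061, are shown because they are the gene's proximal regulatory sequence, with matches to searched motifs in capitals.

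Ptgs2 250 bases before the start: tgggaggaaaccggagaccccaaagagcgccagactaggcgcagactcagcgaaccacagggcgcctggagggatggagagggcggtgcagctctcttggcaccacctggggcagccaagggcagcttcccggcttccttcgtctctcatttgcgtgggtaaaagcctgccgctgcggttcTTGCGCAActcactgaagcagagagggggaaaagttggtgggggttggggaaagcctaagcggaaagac
Ptgs2 site after the start: accactaCGTCACGTGgagtccgct

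The capitals in the first sequence mark the palindrome TTGCGCAA, a form of the site bound by C/EBP factors, from 69 to 62 bases before the annotated start. The same letters occur in 60 of the 32851 windows of 300 bases (250 before and 50 after a start) in the RefSeq promoter table, or 0.183%. The capitals in the second sequence mark a pair of overlapping matches. TGACG, the half-site of the cyclic AMP response element, lies on the reverse strand from base 14 to 18 after the start and occurs in 20.8% of windows, and the E-box CACGTG from base 17 to 22 occurs in 7.15%. The full element TGACGTCA, present in 1.79% of windows, the NF-kB pattern of GGGA, any 2 bases and TTCC (1.47%) and the TATA box TATAAA (13.6%) had 0 matches in the Ptgs2 window. Both strands were searched, and a match describes letters and does not show binding. A lack of matches holds only for these letters within the 300 bases searched, and sequence further out was not searched. Positions are counted from the annotated start, which was not checked against a measured start of transcription.

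Ptgs2 was dim on every unstimulated array and bright on every LPS array. Without LPS its log2 expression was 6.73 on array 1, 6.84 on array 2 and 6.83 on array 3. With LPS it was 12.75 on array 1, 12.66 on array 2 and 12.40 on array 3. The highest unstimulated and the lowest LPS value were 5.56 log2 units apart. How many of all rows have groups that do not overlap was not counted.

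The group means were 6.80 ± 0.063 without LPS and 12.6 ± 0.18 with LPS (SD, n = 3 each). The limma SEs quoted come from an unpaired fit that draws each row's variance toward that of all rows. The difference was 5.80 ± 0.097 on the log2 scale (SE, limma), or 55.9-fold on the deposited scale. The unstimulated level lay near the lower end of that scale, and the fold was 170 with the 1st percentile of each array subtracted first. All 9 differences between an LPS array and an unstimulated array lay between 5.56 and 6.02. These 9 differences come from the same arrays, and the lowest of them is the gap given above. The rise was many times the spread between replicate arrays, in a row that was selected for its rise. In these bulk cultures a larger share of cells expressing the gene and more RNA per cell cannot be told apart. The labels do not say which mouse gave which array number.

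**Figure D1:**
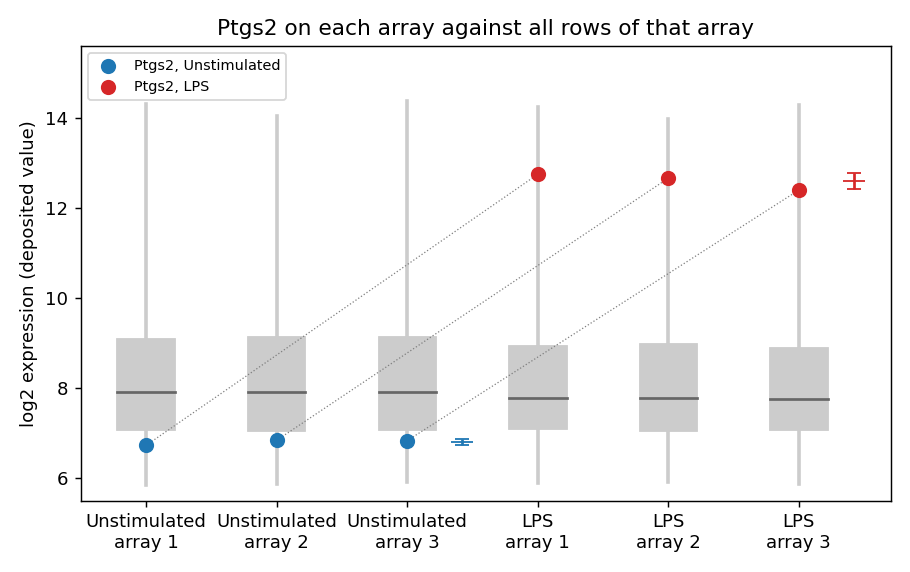
Ptgs2 log2 expression on each of the 6 arrays (points), with grey boxes for the quartiles of all 74007 rows on that array, a grey bar for the median and grey lines from the lowest to the highest row. Dotted lines join arrays with the same number, and the bars beside each group show its mean ± SD (n = 3). Ptgs2 lies below the lower quartile on the unstimulated arrays, at 6.73 to 6.84, and near the top of the range on the LPS arrays, at 12.40 to 12.75.

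The same change is visible as a position within each array. On the unstimulated arrays 12.1%, 16.8% and 15.8% of rows had a lower value than Ptgs2 on arrays 1, 2 and 3. With LPS those shares were 99.7%, 99.6% and 99.3%. Counted from the brightest row, Ptgs2 was in place 219 on LPS array 1, 275 on LPS array 2 and 496 on LPS array 3. Probe sets differ in how well their probes hybridise, so these places describe array signal and not abundance.

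Taken out of the logarithm, the unstimulated signal was 111 ± 4.8 and the LPS signal 6259 ± 770 (SD over 3 arrays each). As a share of the summed linear signal of all rows, Ptgs2 went from 2.76, 2.98 and 2.93 parts in 1000000 on the unstimulated arrays to 181, 168 and 145 on the LPS arrays. The unstimulated signal was close to the lower end of the scale, between 0.51 and 0.61 log2 units above the 1st percentile of its array. No detection call was at hand, so Ptgs2 in unstimulated cells cannot be called present or absent. The fold depends on what is taken as background. The subtraction of the 1st percentile before the logarithm gave a log2 difference of 7.41 ± 0.14 (SE), and with 16 added to every value the rise was 49.0-fold.

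The size of the rise differed between same-numbered pairs of arrays. It was 6.02 on the log2 scale (65.0-fold) in pair 1, 5.82 (56.7-fold) in pair 2 and 5.57 (47.4-fold) in pair 3. The SD of these 3 differences was 0.23. Pair 1 combined the lowest unstimulated with the highest LPS value, and pair 3 held the lowest LPS value. Without LPS array 3 the difference was 5.91 ± 0.066 (SE).

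LPS array 3 was also the lowest of the LPS arrays for many other raised transcripts. Ptgs2 lay 0.21 log2 units below its group mean there. Of the other 660 rows called at least 4-fold higher with LPS (limma adjusted p under 0.05), 376 had their lowest LPS value on array 3, 211 on array 1 and 73 on array 2. Their deviations on array 3 had a median of -0.092 and quartiles of -0.21 and 0.037, and 26.2% of these rows lay further down than Ptgs2. On LPS array 1, Ptgs2 lay 0.15 above its group mean, and 74.7% of these rows had a lower deviation. These rows were called on the same arrays, and the part of LPS array 3 in the Ptgs2 spread was measured only by leaving it out, as above. The share of all rows with their lowest LPS value on array 3 was not counted. Over all rows, the upper quartile was 8.93, 8.99 and 8.89 on LPS arrays 1, 2 and 3, and the lower quartile 7.08, 7.05 and 7.07. Whether the low values of the raised rows on array 3 belong to the whole array was not tested.

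**Figure D2:**
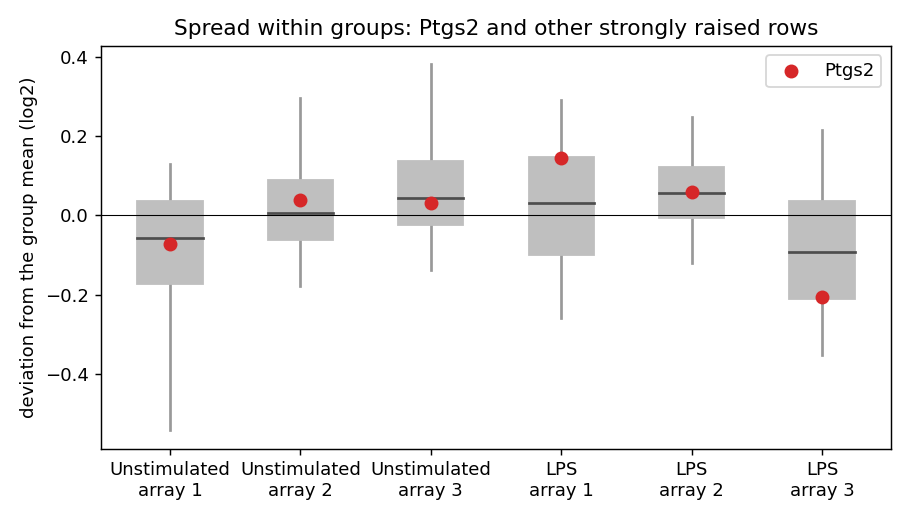
Deviation of Ptgs2 (points) from its group mean on each array, in log2 units, beside the 660 other rows called at least 4-fold higher with LPS, shown as quartile boxes with the median and lines from the 5th to the 95th percentile. On LPS array 3 both Ptgs2, at -0.21, and the median of the other rows, at -0.092, lie below 0.

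The spread of Ptgs2 can be set beside that of rows of like signal. Without LPS its SD of 0.063 compares with a median SD of 0.048 among the 13299 rows, itself included, within 0.25 log2 units of its unstimulated mean, and 64.0% of them had a smaller SD. With LPS its SD of 0.18 compares with a median of 0.11 among the 402 rows within 0.25 of its LPS mean, and 87.3% had a smaller SD. Among the 660 other rows raised at least 4-fold, the median SD with LPS was 0.17, and 56.2% had a smaller SD than Ptgs2. Without LPS the median SD of these 660 rows was 0.13, and 20.5% had a smaller SD than Ptgs2. On the LPS arrays Ptgs2 thus varied more than most rows of its brightness and near the median of the strongly raised rows. On the unstimulated arrays it varied more than most rows of its level and less than most of the strongly raised rows. The latter were not matched to it in unstimulated level.

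By limma, 23667 of all rows (32.0%) were called at a Benjamini-Hochberg adjusted p under 0.05. Those called higher were 6472 (8.75%), of which 78 (0.105% of all rows) were at least 16-fold higher, and 17195 were called lower. The scaling of the arrays decides this balance: 23708 were called higher and 11887 lower with each array centred on its median, and 10499 and 11053 after cyclic loess normalization. Ptgs2 is in each of these counts except those of rows called lower. Nothing is read from this, because the row was selected on this contrast. By size of the log2 difference it was the 5th of 74007 rows. The median difference over all rows was -0.022. The largest fall in the table was 22.2-fold, less than the rise of Ptgs2.

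The place in that order is less certain than the rise itself. The row next above rose by 5.90 ± 0.095 and the row next below by 5.74 ± 0.080 (log2 difference, SE), which differ from Ptgs2 by 0.73 and 0.50 of the SE of the difference. The row in place 7, at 5.69, was also less than 1 SE away. The SE of a difference between rows was computed as if the rows were independent. They were measured on the same arrays, so these multiples of the SE are approximate. The rows in places 1, 2 and 3, at 6.20, 6.14 and 6.02, lay above Ptgs2 by 2.73, 2.52 and 1.62 SE, and each rose more than it did in all 3 same-numbered pairs. Within single pairs Ptgs2 was in place 4, 5 and 10 for pairs 1, 2 and 3.

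**Figure D3:**
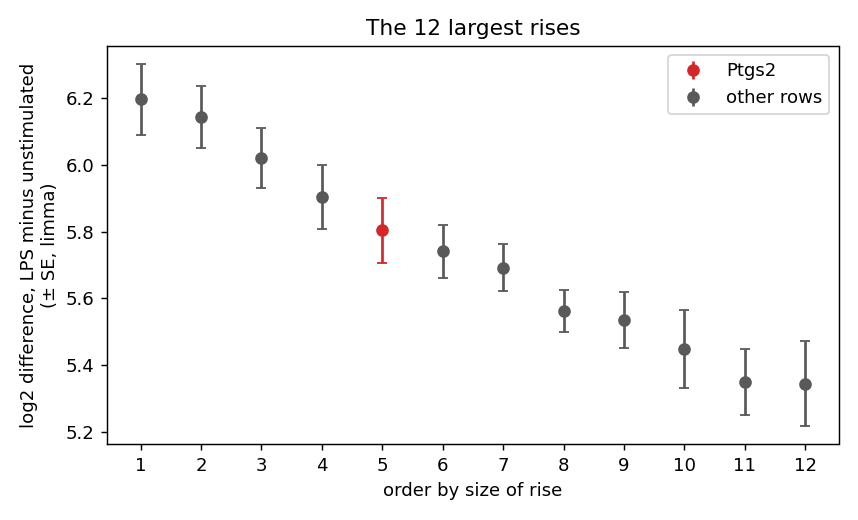
Log2 difference between LPS and unstimulated arrays (± SE from limma, n = 3 per group) for the 12 rows with the largest rises, in order of size, on an axis that does not start at 0. Ptgs2, in place 5 at 5.80, overlaps in its SE with the rows in places 4, 6 and 7.

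Rows that were as dim as Ptgs2 without LPS mostly stayed dim. Within 0.25 log2 units of its unstimulated mean lay 13298 other rows, whose differences had a median of 0.024 and a range from -0.13 to 0.20 between the 5th and 95th percentiles. Of these, 491 (3.69%) were called higher by limma, 75 of them at least 4-fold and 15 at least 16-fold. Over all 74007 rows, 6472 (8.75%) were called higher, 661 of them at least 4-fold and 78 (0.105% of all rows) at least 16-fold. Of the 13298, 1 rose more than Ptgs2. Of the 18502 rows in the dimmest 25% without LPS, Ptgs2 had the 4th largest rise, and 1 other reached its LPS level, since 2 rows including Ptgs2 had an LPS mean that high.

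Rows that were as bright as Ptgs2 with LPS were mostly bright before. Including Ptgs2, 306 rows had an LPS mean at least as high, and their median unstimulated mean was 12.8. Of these, 230 differed by less than 2-fold between groups and 76 were at least 2-fold higher with LPS. Over all 74007 rows, 2222 were called and at least 2-fold higher, whereas the 76 were counted by difference alone. A choice of rows by a high LPS mean favours raised rows. Ptgs2 had the lowest unstimulated mean of the 306. On the linear scale, where bright rows count for more, its rise was the 42nd largest.

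**Figure D4:**
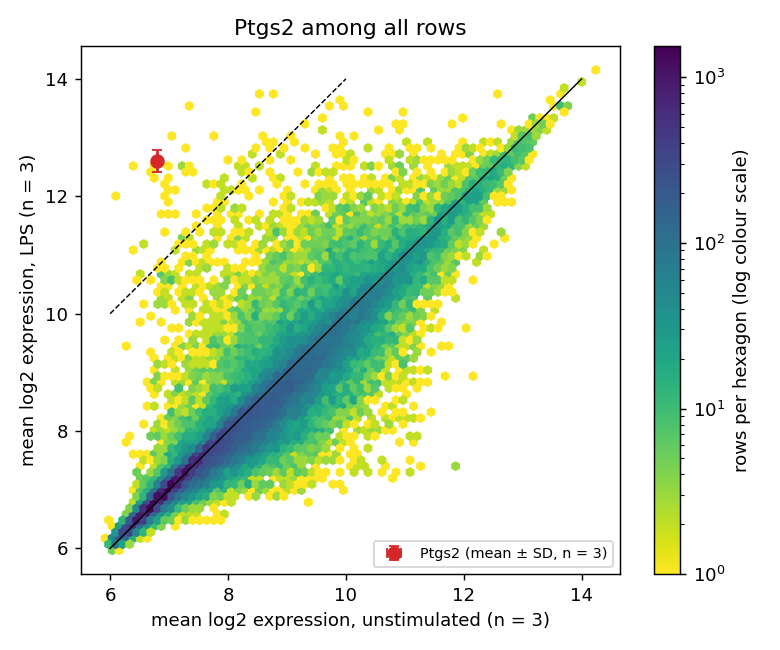
Mean log2 expression of all 74007 rows without LPS (horizontal axis) and with LPS (vertical axis), n = 3 arrays each, with the number of rows per hexagon on a log colour scale. The solid line marks equal values, the dashed line a 16-fold rise, and the point with SD bars is Ptgs2 at 6.80 and 12.6.

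The rows most like Ptgs2 were taken by the root mean square distance over the 6 arrays, after each row was centred on its own mean. The nearest was ENSMUST00000113093_at, at a distance of 0.14 log2 units. Its values were 6.92, 6.75 and 6.71 on unstimulated arrays 1 to 3 and 12.50, 12.53 and 12.44 on LPS arrays 1 to 3. It started at almost the level of Ptgs2 and rose by 5.69, with pair differences of 5.57, 5.78 and 5.73 that were more even than those of Ptgs2.

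Next was ENSMUST00000028881_at, at a distance of 0.17. Its values were 6.76, 6.82 and 6.75 without LPS and 12.27, 12.44 and 12.30 with LPS, a rise of 5.56. The other 3 of the nearest 5 lay at 0.18, 0.18 and 0.20 and rose by 6.02, 5.74 and 6.14. These 5 rows could not be given gene names, and 2 of them had their lowest LPS value on array 3, as Ptgs2 did.

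Pearson's r does not depend on the size of a rise. Because the arrays form a low and a high group, many rows had a high r. Over the 6 arrays 1157 rows had an r of at least 0.99 with Ptgs2, of which 248 had at least 50% of its log2 difference. The 5 rows with the highest r, between 0.9997 and 0.9999, rose by 2.39 to 6.20 and held 0 of the 5 nearest by distance. No other row shared all 6 values with Ptgs2, and 0 lay within 0.25 of it on every array.

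Other genes of the prostaglandin pathway (phospholipases, Ptgs1, terminal synthases, transporters, receptors) and the markers of macrophages and of other marrow cells were not analysed here. The rows carry Ensembl transcript identifiers, and the gene table used here holds 49997 symbols and 0 Ensembl identifiers. The name Ptgs2 for ENSMUST00000035065_at likewise comes with the selection and was not checked against an annotation. The cell type is that of the labels.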

How the data were processed

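Total RNA of 6 cultures was hybridised to Affymetrix exon arrays. The authors deposited log2 values per transcript-level probe set, per the series text. PLIER and Affymetrix Power Tools are listed, per the submitters' processing notes. The sources used here do not give probe-set annotation, offset or normalization. Arrays were grouped by title. limma 3.58.1 in R 4.3.3 (lmFit, eBayes) was fitted to all 74007 rows as deposited, two-sided, with Benjamini-Hochberg adjustment at 0.05; its SE is quoted for Ptgs2. The code of the limma fit was tested on simulated data with known changes. The number of arrays limits precision. Ptgs2 and all rules were chosen with earlier results of these data known. Rows named were Ptgs2, the 5 nearest rows and its neighbours in order; without gene names, 2 other identifiers are printed. Across rows, the residuals of LPS and unstimulated arrays with the same number had correlations of 0.50, 0.30 and 0.12, each above 0.1, although unstimulated array 2 and LPS array 3 had 0.21. Pair differences are therefore given; the quoted fit has no block, and the block is an alternative. The series text describes 1 culture per animal and group. Figures used matplotlib 3.10.9.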

Additional observations from a re-analysis of the deposited data

How the results depend on the processing

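The replicate block could not change the log2 difference of Ptgs2 from 5.80, since each array number has 1 array per group. That difference was 5.61 with an offset of 16, 5.79 with quantile normalization and 5.95 with median centring. Cyclic loess normalization gave 5.98, and centring on rows above the median level gave 5.99. The difference moved beyond the SD of the pair differences only with the 1st percentile of each array subtracted, to 7.41. This alternative was added after the data were seen. Leaving out 1 array gave 5.73 to 5.91 and place 4 to 6 in the order of rises. That place was 4 or 5 under the other settings except by linear difference, where it was 42. Of the 5 nearest rows, 0 were among the 5 with the highest Pearson's r, and 5 were kept with distinct sets of values and with cyclic loess normalization (the latter added later). Centring moved the median difference of all rows from -0.022 to 0.13 (arrays' medians) and 0.16 (rows above the median level). Rows called went from 23667 to 35595 and 35998 with these centrings and to 1587 with limma's treat against 2-fold. Of rows called higher there were 6472 as deposited, 9768 after quantile and 10499 after cyclic loess normalization, 23708 and 25171 with the centrings and 1072 with treat. Leaving out 1 array gave 18380 to 22009 called, 5234 to 6505 called higher and 68 to 90 at least 16-fold higher. With the replicate block 26284 were called. Alternatives for pathway genes were not run, since the rows have no gene names.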
